A study of Mus musculus with 4 samples.

Results

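The transcriptome of PαS cells cultured in osteogenic medium with neither bone morphogenetic protein (BMP)-2 nor IL-17A was examined by RNA sequencing. The cells came from injured tissue in and around the femur of wild-type C57BL/6J mice. They were sorted as CD45-, CD11b-, Ter119-, CD31- and CD34- cells carrying Sca-1 and the α receptor of platelet-derived growth factor (PDGFRα), and were seeded at 3000 cells per well and kept for 7 days before total RNA was extracted. The series held 4 libraries, 1 for each combination of 0 or 500 ng per ml BMP-2 with 0 or 10 ng per ml IL-17A, and all 4 cultures shared the osteogenic medium. The library labelled as without BMP-2 and IL-17A is described here by itself. Its title and cytokine label give neither, while a culture note shared by all 4 samples mentions both cytokines. It was taken as untreated from its own labels, and no condition was compared with another. The group was 1 library, so no value below has a replicate, and how many mice the cells were pooled from is not given in the sources used here.

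Of 46517 genes listed for this library, 8444 had an exon length above 0 and at least 50 exon reads, and these were ranked by RPKM, the exon reads of a gene per kilobase of exon, scaled to a fixed total of reads in genes. The library held 4673322 exon reads, of which 53.1% were spliced across exons and 10.6% were not counted as unique to a gene. The exon reads of the other 3 libraries ranged from 4190612 to 4719412. The ranked genes held 98.3% of the exon reads. A further 4956 genes had 1 to 49 exon reads, and 17296 genes with an exon length above 0 had none. All intervals given are exact 95% intervals (Clopper-Pearson for shares, Poisson for RPKM and conditional binomial for ratios of RPKM). They cover counting error only, since the complementary DNA was amplified by PCR and carried no molecular identifiers, and they leave out variation between cultures.

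Sorting on PDGFRα and Sca-1 is a common way to isolate mesenchymal progenitors, which can form osteoblasts, adipocytes and chondrocytes. Osteogenic medium supplies ascorbic acid, which collagen hydroxylation needs, a phosphate source for mineral and a glucocorticoid. Stromal cells that spread on culture plastic are known to secrete a collagen-rich matrix and to assemble actin stress fibres, and smooth muscle α-actin, encoded by Acta2, is the classical mark of a myofibroblast.

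The library was led by the 2 ferritin genes, whose transcripts carry the iron-responsive element, a hairpin in the 5′ untranslated region that iron regulatory proteins bind to hold back ferritin translation when iron is scarce. Because ferritin is controlled at this step, the level of its mRNA and that of its protein need not go together. The elements are shown since these 2 genes took a larger share of the reads than any other gene. They were read from GENCODE M21 transcripts on mm10, both in exon 1, and the capitals mark the 6-base hairpin loop.
Fth1, chr19:9982731-9982760, plus strand, bases 86 to 115 of the transcript: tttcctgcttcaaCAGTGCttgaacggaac
Ftl1, chr7:45459779-45459808, minus strand, bases 77 to 106 of the transcript: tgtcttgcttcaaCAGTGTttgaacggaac
The 2 elements were identical at 27 of 30 bases. The longest run that the first 300 bases of the 2 transcripts shared was TGCTTCAACAGTG, 13 bases that end inside the loop. On the sense strand it was found in the first 300 bases of a transcript for 3 of 21877 protein-coding genes (0.0137%), the 2 ferritin genes and Ftl1-ps1, a ferritin light chain copy. The run was taken from the 2 ferritin transcripts, so their own matches were fixed in advance. The count does not show how many genes carry an iron-responsive element.

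Fth1 (ENSMUSG00000024661, chr19:9982703-9985092, plus strand), which encodes the ferritin heavy chain that oxidizes iron for storage, had 79181 exon reads and an RPKM of 18342 (18215 to 18471). Ftl1 (ENSMUSG00000050708, chr7:45457944-45459884, minus strand), which encodes the light chain, had 70752 exon reads and an RPKM of 10592 (10514 to 10671). Fth1 and Ftl1 together took 3.21% of all exon reads. The RPKM of Fth1 was 1.73 times that of Ftl1 (1.71 to 1.75). This ratio depended on how reads were assigned, because 99.3% of the Fth1 reads but 38.3% of the Ftl1 reads were unique to the gene. With unique reads alone the ratio was 4.49 (4.42 to 4.55), and the ferritin genes still held the highest positions in the ranking.

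After ferritin came genes for secreted, matrix and cytoskeletal proteins. Lgals1 (chr15:78926725-78930465, plus strand), which encodes galectin-1, a secreted β-galactoside-binding lectin, ranked 3 with an RPKM of 3188 (3133 to 3244). Sparc (chr11:55394500-55420080, minus strand), which encodes osteonectin, a collagen-binding glycoprotein abundant in bone, followed with an RPKM of 2635 (2611 to 2660). Acta2 (ENSMUSG00000035783, chr19:34241090-34255336, minus strand) ranked 5 with an RPKM of 2524 (2491 to 2557). These 3 genes did not overlap in their intervals, and nearly all reads of each were unique to the gene.

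**Figure D1:**
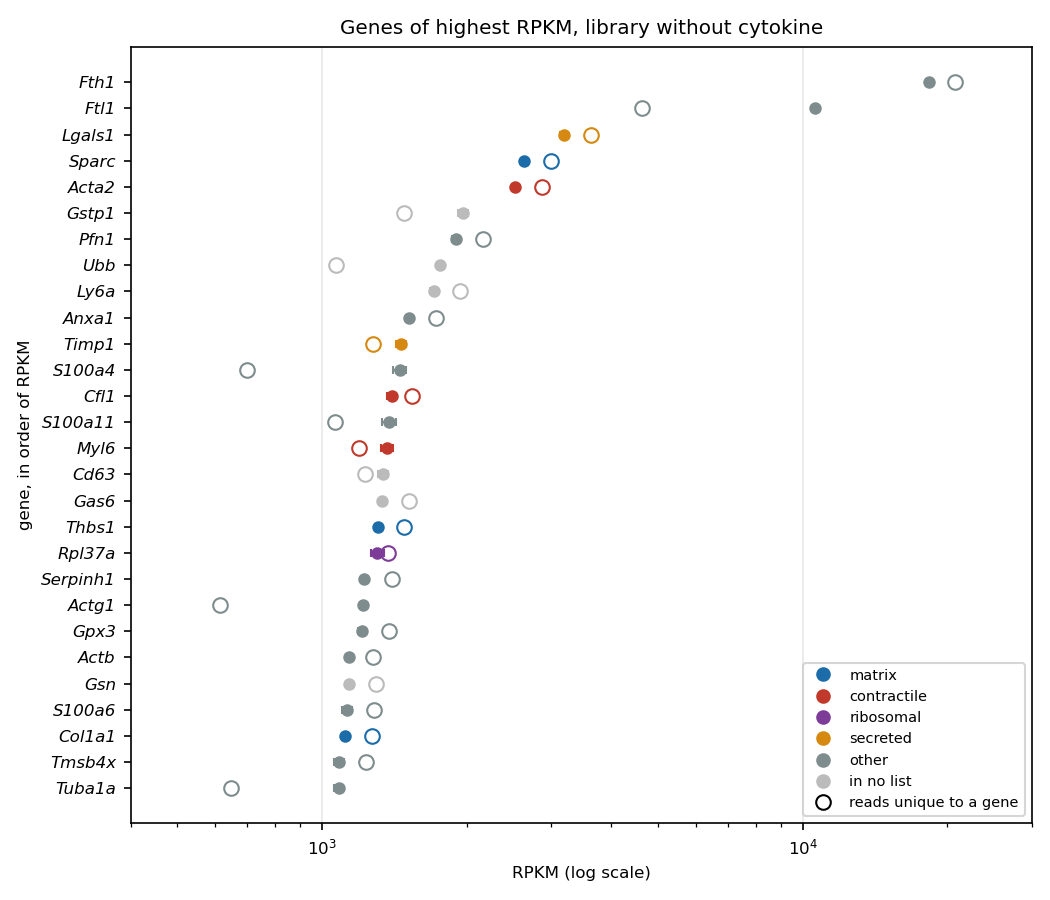
RPKM (log axis) of 28 of the 30 highest genes in the library without cytokine. Filled points are RPKM from all exon reads with the exact Poisson 95% interval, open circles are RPKM recomputed from reads unique to a gene, and colours give the functional class. Fth1 and Ftl1 stand apart at 18342 and 10592, and the open circles of Ftl1, S100a4, Actg1, Tuba1a and Ubb lie furthest to the left of their filled points.

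The remaining 25 of the 30 highest genes lay between an RPKM of 1966 and 1084. Genes of the cytoplasm and its cytoskeleton made up a large part of them. Pfn1 (1899) and Tmsb4x (1085) encode the actin monomer binding proteins profilin-1 and thymosin β4, Cfl1 (1398) encodes the actin-severing protein cofilin-1, and Gsn (1137) encodes the actin-severing protein gelsolin. Anxa1 (1517) encodes the phospholipid-binding annexin A1, and S100a4 (1451), S100a11 (1378) and S100a6 (1127) encode calcium-binding S100 proteins. Cytoskeletal subunits were represented by Actg1 (1217), Actb (1139), Myl6 (1368), a light chain of non-muscle and smooth muscle myosin, and Tuba1a (1084), an α-tubulin.

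Detoxification, ubiquitin and secretory genes were also found there. Gstp1 (1966) encodes a glutathione S-transferase, Gpx3 (1212) a secreted glutathione peroxidase, and Ubb (1765) a polyubiquitin precursor. Gas6 (1335) encodes a secreted ligand of the TAM receptor kinases and Cd63 (1342) a tetraspanin of endosomes. Timp1 (1461) encodes an inhibitor of matrix metalloproteinases, and Serpinh1 (1225) encodes HSP47, the collagen chaperone of the endoplasmic reticulum. Thbs1 (1307), Col1a1 (1118), Rpl37a (1304) and Ly6a (1710) were also among the 30 genes and are described with their groups.

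Most of the order within the 30 genes could not be resolved at this depth, since 20 of the 29 pairs of neighbours had overlapping intervals. Unique reads moved some members further than counting error did. Of the 30 genes, 6 had under 60% unique reads, among them Ftl1, Ubb, S100a4, Actg1 and Tuba1a, so their RPKM is uncertain. Why the reads of these genes were not unique was not tested. With unique reads alone 25 of the 30 genes stayed among the 30 highest, and S100a4 moved from rank 12 to 55 and Actg1 from rank 21 to 66.

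The reads were spread over many genes rather than dominated by a few. The 10 genes with most exon reads held 8.54% of them, the top 100 held 25.8% and the top 1000 held 59.2%, and 595 genes were needed to reach 50%. Among ranked genes the median RPKM was 11.3 and the quartiles were 5.10 and 28.2, with 616 genes at 100 or more and 36 at 1000 or more. At the minimum of 50 reads, the excluded gene of highest RPKM was Ndufa1, a small subunit of respiratory complex I, with 47 reads and an RPKM of 22.5, so the minimum removed short genes at levels above the median. The ranked gene of lowest RPKM was Birc6, a very long inhibitor of apoptosis gene, with 56 reads and an RPKM of 0.437.

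The 4 functional classes (matrix, contractile, ribosomal and secreted) together took 18.97% of exon reads. Structural matrix genes took 8.60% (8.58 to 8.63), secreted factors 4.08% (4.07 to 4.10), ribosomal protein genes 3.33% (3.31 to 3.34) and contractile genes 2.95% (2.94 to 2.97). These shares depend on list membership, which the intervals do not cover. The secreted Gas6 (0.369% of exon reads) was in no list, and the secreted Gpx3 (0.234%) was counted with the antioxidant genes. Gsn (0.383%), which encodes an actin-severing protein, was also in no list, while Cfl1 was counted as contractile. The order of the contractile and ribosomal shares depends on such choices. The shares also count reads, and a long transcript gives more reads than a short one at the same number of molecules. As shares of summed RPKM, which removes length, ribosomal protein genes took 6.83%, matrix genes 4.70%, secreted factors 4.37% and contractile genes 3.23%. The order of matrix and ribosomal genes was thus reversed by the weighting.

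**Figure D2:**
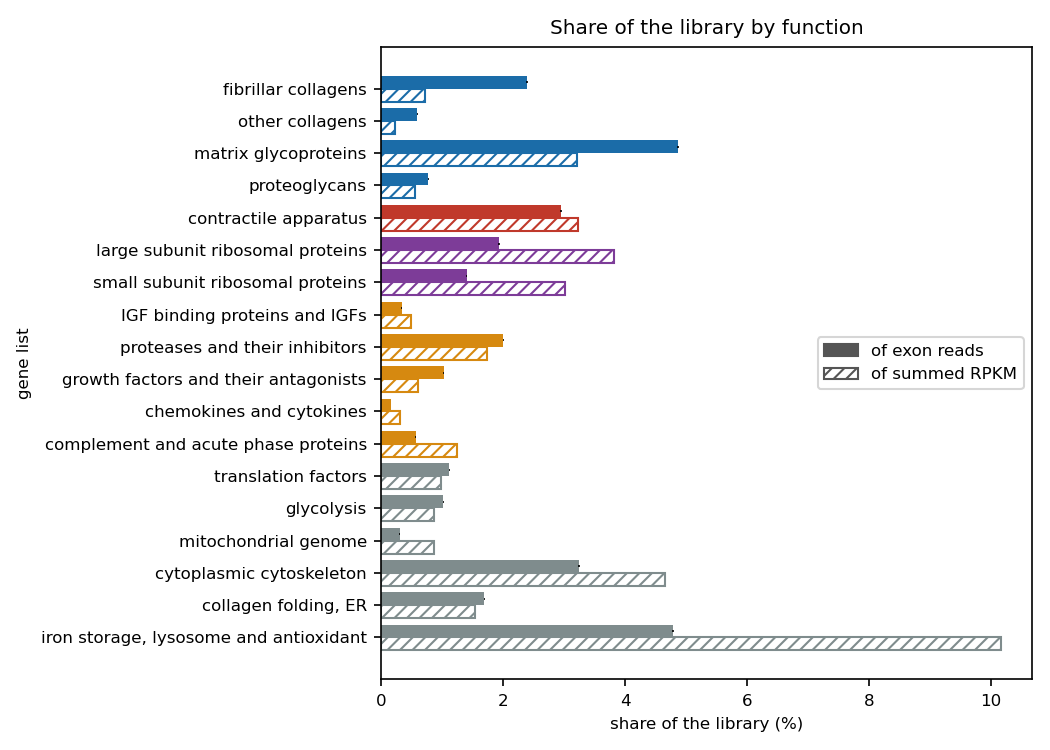
Share of the library (%) taken by each of 18 gene lists. Solid bars are shares of exon reads with the exact 95% interval, hatched bars are shares of summed RPKM, and colours mark the classes as in the plot of the 30 highest genes (matrix blue, contractile red, ribosomal purple, secreted orange, other grey). The fibrillar collagens fall from 2.38% of reads to 0.713% of summed RPKM, while the ribosomal lists and the list with the ferritin genes rise.

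Of 143 matrix genes, 84 had 50 or more exon reads, 24 had 1 to 49 and 35 had 0. Over all genes with an exon length above 0 these counts were 8444, 4956 and 17296. The counts of the other classes below stand against the same background. The fibrillar collagens, the rod-like collagens that form fibres, took 2.38% of exon reads, and Col1a1, Col1a2 and Col3a1 alone took 2.01%. Col1a1 (ENSMUSG00000001506, chr11:94936224-94953042, plus strand) ranked 5 by reads (36584) and 28 by RPKM, at 1118 (1107 to 1130). Col3a1 had an RPKM of 547, Col1a2 of 506, Col5a1 of 218 and Col5a2 of 143.

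Type I collagen is a trimer of 2 α1 chains and 1 α2 chain, and type IV collagen of basement membranes is commonly built with the same stoichiometry. The RPKM of Col1a1 was 2.21 times that of Col1a2 (2.18 to 2.24). The RPKM of Col4a1 was 2.36 times that of Col4a2 (2.27 to 2.46), or 2.07 times with unique reads. Type VI collagen, whose microfibrils are built from α1, α2 and α3 chains in equal numbers, gave a Col6a1 to Col6a2 ratio of 2.36 (2.25 to 2.48). Thus a ratio of this size was found for a collagen without a doubled chain as well, and the ratios rest on the merged exon lengths of the annotation, which for Col1a2 came to 12137 bases against 6563 for Col1a1.

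Among other collagens, Col4a1 had an RPKM of 229, Col6a1 of 157, Col4a2 of 96.9, Col8a1 of 83.2 and Col6a2 of 66.5. Of the 33 genes of this list 13 had no read, among them the chondrocyte collagens Col9a1, Col9a2 and Col10a1 and the epithelial Col17a1. In contrast all 11 fibrillar collagen genes had at least 1 read.

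Matrix glycoproteins were the largest of the matrix lists at 4.86% of exon reads, and 54 of 74 had 50 or more reads. Sparc led with 44226 reads. Thbs1, encoding the adhesive glycoprotein thrombospondin-1 that can activate latent TGF-β, had 39573 reads and an RPKM of 1307 (1294 to 1320). The CCN family of matricellular proteins followed, with Wisp2 (CCN5) at an RPKM of 951, Cyr61 (CCN1) at 819 and Ctgf (CCN2) at 720. Cyr61 and Ctgf are known targets of the YAP and TAZ coactivators. Fibronectin, encoded by Fn1, took 19144 reads at an RPKM of 329.

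Small leucine-rich proteoglycans bind collagen fibrils and were of very unequal levels. Prelp, a proteoglycan of connective tissue, had an RPKM of 1050 (1035 to 1065), but 27.5% of its 18927 reads were unique and 6.25% were spliced, so this level is uncertain. Biglycan (Bgn) had an RPKM of 759 (746 to 772) and decorin (Dcn) of 104 (97.6 to 110.1), a ratio of 7.32 (6.88 to 7.80). Fibromodulin (Fmod) had an RPKM of 73.9. The large basement membrane proteoglycan perlecan (Hspg2) had 5.97.

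The machinery for folding collagen was widely present, as all 24 genes of the collagen folding and endoplasmic reticulum list that were found in the table had 50 or more reads. Serpinh1 led with an RPKM of 1225. P4hb, the β-subunit of prolyl 4-hydroxylase, had 509, the disulphide isomerase Pdia3 467, the prolyl isomerase Ppib 414 and the chaperone calreticulin (Calr) 405. Lysyl oxidase, encoded by Lox (chr18:52516069-52529867, minus strand), which crosslinks collagen and elastin, was eighth by reads (24688) with an RPKM of 1030 (1017 to 1043).

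Contractile genes were almost all present, 40 of 43 at 50 or more reads, 1 at 1 to 49 and 2 at 0. Acta2 alone took 16.2% of the reads of the class, and 71.9% of its reads were spliced. After Acta2 came Cfl1 (1398), Myl6 (1368), the tropomyosin Tpm4 (886) and transgelin (Tagln, 879), an actin-bundling protein of smooth muscle. Of the Tpm4 reads 32.9% were unique, and with unique reads Tpm4 had an RPKM of 332, below Tagln at 1002, so its place is uncertain. The 2 genes at 0 were the cardiac actin Actc1 and the non-muscle myosin heavy chain Myh14.

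The 6 actins were at very different levels. Acta2 exceeded the cytoplasmic Actb, with an RPKM of 1139 (1121 to 1158), by 2.22 times (2.17 to 2.26). It exceeded the cytoplasmic Actg1, with 1217 (1199 to 1236), by 2.07 times, or 4.69 times with unique reads, since 44.2% of the Actg1 reads were unique. The smooth muscle γ-actin Actg2 had an RPKM of 102, which put Acta2 24.7 times higher. The skeletal Acta1 had 37.2 (32.9 to 42.0), 67.8 times below Acta2, and Actc1 had 0 reads. From unique reads Actb was 2.08 times Actg1 (2.02 to 2.14), whereas from all reads it was 0.936 times (0.915 to 0.957), so the order of the cytoplasmic actins turned with the read assignment.

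Genes of the contractile apparatus are classical targets of serum response factor, which binds the CArG box. The matches of the strict form of this box within RefSeq promoters (GRCm38.p6, 250 bases before to 50 bases after the gene start) are shown with 10 bases on each side for the contractile genes with reads, and the capitals mark the box. The box reads as itself on the opposite strand, so both strands were covered, and no other motif was searched in the promoters.
Myl6, chr10:128493040-128493069, minus strand: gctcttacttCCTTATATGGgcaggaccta
Myl9, chr2:156775293-156775322, plus strand: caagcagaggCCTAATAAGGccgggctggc
Cnn2, chr10:79988534-79988563, plus strand: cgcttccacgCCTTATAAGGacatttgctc
Vcl, chr14:20929161-20929190, plus strand: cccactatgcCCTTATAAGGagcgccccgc
Acta1, chr8:123894829-123894858, minus strand: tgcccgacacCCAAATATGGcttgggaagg
The box began 50 bases before the gene start in Myl6, 161 in Myl9, 56 in Cnn2, 227 in Vcl and 73 in Acta1. Myl6 had an RPKM of 1368, the myosin light chain gene Myl9 of 686, the calponin gene Cnn2 of 458, vinculin (Vcl) of 107 and Acta1 of 37.2. With Actc1, which held a box and had 0 reads, 6 of the 37 contractile genes found in the promoter table had a match (16.2%), against 1.81% of all 27025 genes in it and 1.69% of the 6550 ranked genes in it. A match is a run of letters and no measure of binding, and genes with a box ranged from 0 reads to an RPKM of 1368. The window of Acta2 held no strict match, and Tagln was not in the table used. Looser forms of the box were not searched, so the result does not show that Acta2 lacks a box.

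All 81 ribosomal protein genes had 50 or more reads. Proteins of the large subunit took 1.93% and those of the small subunit 1.40% of exon reads. Although ribosomal proteins are needed in equal numbers, the RPKM of their genes ranged from 16.2 for Rpl36a to 1304 for Rpl37a, an 80.3-fold range. Of the 81 genes, 43 were within 2-fold of the median. The range also rests on merged exon lengths, which came to 404 bases for Rpl36 and 6262 for Rps15a, so it does not measure an imbalance of transcripts. The stalk protein gene Rplp0 had an RPKM of 1013.

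Ribosomal protein genes have many processed pseudogenes, and the assignment of their reads was uncertain. The median share of unique reads was 54.1%, and 38 genes were under 50%. Rps7 had an RPKM of 900 with 777 of its 4311 reads unique, and Rps12 had 140 exon reads, none of them unique. Counting unique reads alone lowered the ribosomal share to 2.21%. The 261 listed pseudogenes named for a ribosomal protein held 251 exon reads together, and only 22 of them had an exon length above 0.

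**Figure D3:**
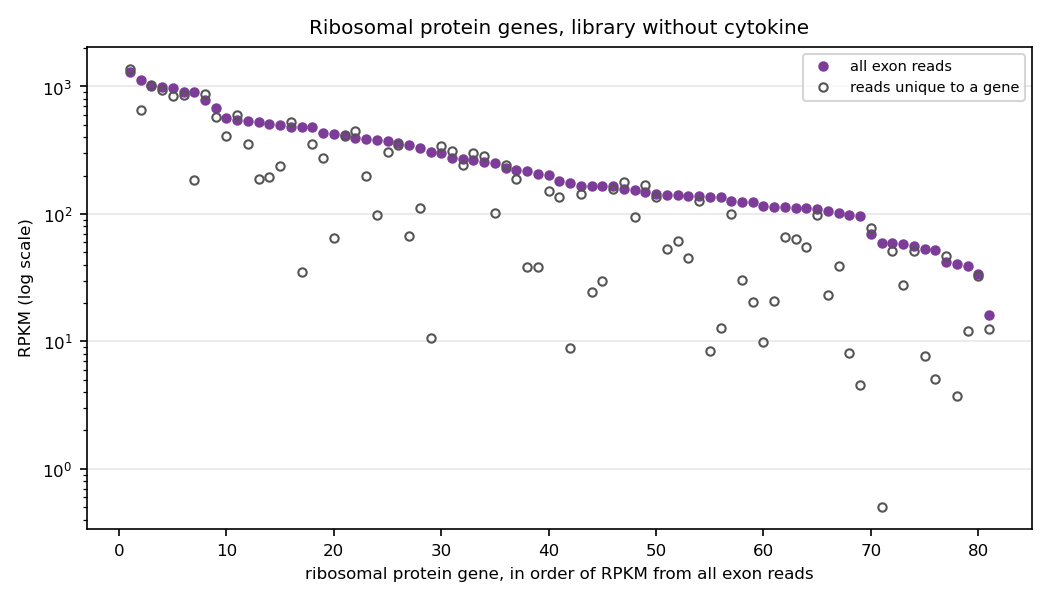
RPKM (log axis) of the 81 ribosomal protein genes in order of their RPKM from all exon reads. Filled points use all exon reads, and open circles use reads unique to a gene. The filled points run from 1304 down to 16.2, and many open circles lie far below them. Rps12, with no unique read, is drawn at the lower edge.

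Secreted factors were a mixed class, with 103 of 194 genes at 50 or more reads, 51 at 1 to 49 and 40 at 0. The list of proteases and their inhibitors, which also holds the lysyl oxidases, was the largest at 2.003% of exon reads, and Lox alone took 26.4% of its reads. Timp1 led with an RPKM of 1461 (1426 to 1497), followed by Serpinf1 (1072), which encodes the anti-angiogenic factor PEDF, Lox (1030), Timp2 (693) and the cysteine protease inhibitor cystatin C (Cst3, 342). The ratio of Timp1 to Timp2 was 2.11 (2.05 to 2.17), or 1.62 with unique reads. The proteases Mmp9 and Mmp13, the latter a collagenase of hypertrophic chondrocytes and osteoblasts, had 0 reads.

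The insulin-like growth factor (IGF) binding proteins modulate IGF access to its receptor. Igfbp7 (ENSMUSG00000036256, chr5:77349240-77408041, minus strand) had 4458 reads and ranked 55th with an RPKM of 740 (718 to 762). Igfbp4 (ENSMUSG00000017493, chr11:99041244-99054392, plus strand) had 4387 reads and an RPKM of 199 (193 to 205), at rank 276. Although nearly equal in reads, Igfbp7 was 3.71 times Igfbp4 per length (3.56 to 3.87). Igfbp2 (444) and Igfbp6 (352) lay between them and Igfbp3 was at 26.2, while Igf1 had an RPKM of 3.59 and Igf2 had 11 reads. Igfbp1 and Igfals, both typical of liver, had 0 reads.

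Csf1, the growth factor of macrophages and osteoclast precursors, was the ninth gene by reads (24200) with an RPKM of 919 (908 to 931). It took 50.5% of the reads of the growth factor list. The follistatin-related genes Fstl1 (383) and Fst (166), the WNT antagonist Sfrp1 (71.8) and Tgfb3 (67.0) followed. The osteoclast differentiation factor RANKL, encoded by Tnfsf11, had 0 reads, as had 14 other genes of this list.

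Chemokines and cytokines took 0.158% of exon reads and 10 of 39 reached 50 reads. Mif, a macrophage migration inhibitory factor, had an RPKM of 439, the monocyte chemokine Ccl7 of 307, progranulin (Grn) of 153, Cxcl14 of 63.3 and Ccl2, another monocyte chemokine, of 55.2. With unique reads Ccl7 had an RPKM of 349 and Mif of 301, so their order is uncertain, and Ccl2 had 31.3. Il1a, Il1b, Tnf, Csf2 and Csf3 had 0 reads. The complement and acute phase list also holds Lgals1, Lgals3 and Lgals3bp, which its name does not describe. It was led by Lgals1, which took 48.1% of its reads, and by the pattern recognition molecule Ptx3 (728). Ptx3 is uncertain because 19.1% of its reads were unique. Lgals3bp (177), Lgals3 (78.9) and haptoglobin (Hp, 77.8) came next.

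Lists outside the 4 classes were also covered. Iron storage, lysosome and antioxidant genes took 4.79% of exon reads and 10.2% of summed RPKM, with Mt1, a metallothionein, at an RPKM of 701 and the peroxidase Gpx1 at 694 behind the ferritins and Gpx3. The cytoplasmic cytoskeleton took 3.25% of exon reads, translation factors 1.11% and glycolysis 1.02%. Pkm (726) and Ldha (612), for the last steps of glycolysis to lactate, led the glycolytic genes. The 13 protein genes of the mitochondrial genome took 0.299%, but 45.8% of their 13994 reads were unique, and mt-Co3 had 19 unique reads of 3163.

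Whether genes of particular lineages were present was then asked, with 273 distinct genes in 22 lists. At 50 or more exon reads 90 of them were called present, 69 had 1 to 49 reads and 114 had 0. Over all genes with an exon length above 0, 8444 had 50 or more, 4956 had 1 to 49 and 17296 had 0. A gene at 0 is below detection at this depth, since a count of 0 allows up to 3 reads. For the 29 defining genes at 0 this limit was an RPKM between 0.0467 and 1.15, depending on length. In these bulk data fewer cells of a type and less RNA per cell cannot be told apart.

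**Figure D4:**
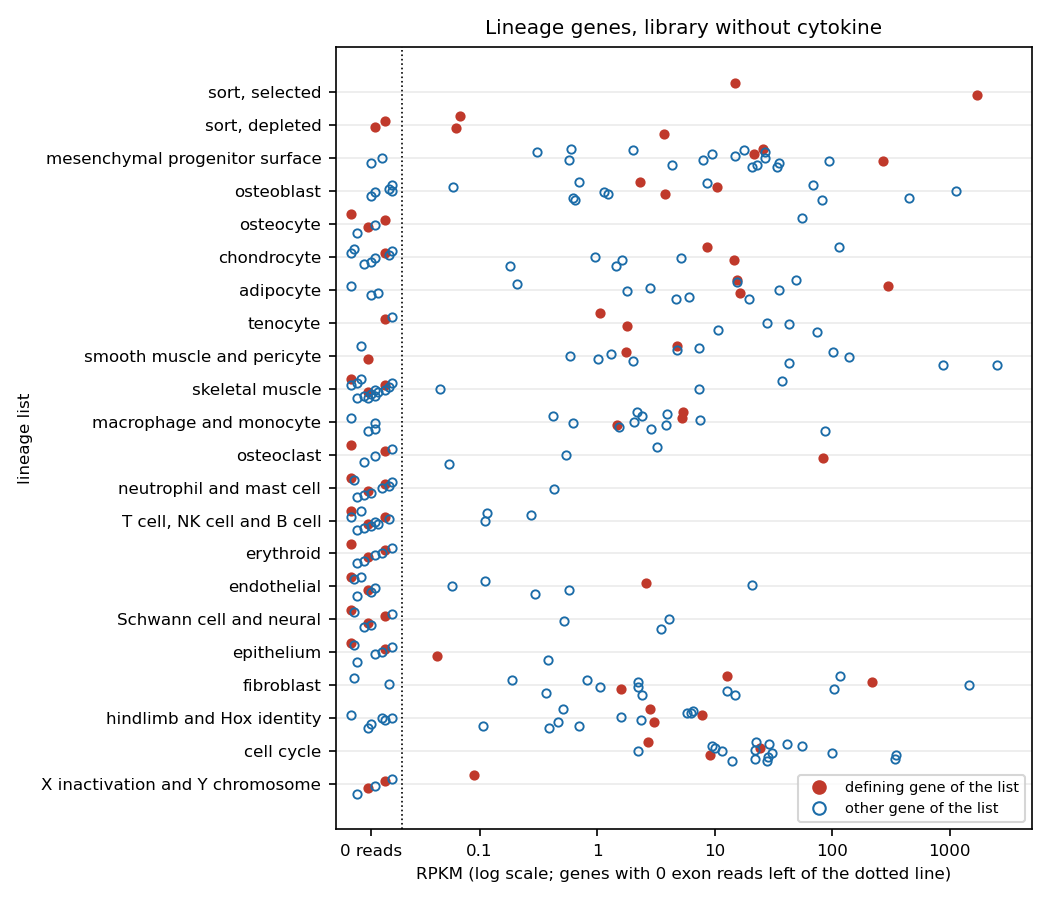
RPKM (log axis) of the genes in each of 22 lineage lists. Filled points are the defining genes of a list, open circles its other genes, and genes with 0 exon reads are gathered left of the dotted line, where position carries no value. The erythroid, neutrophil and mast cell, lymphocyte, skeletal muscle and epithelial lists sit mainly at 0 reads, and all 20 cell cycle genes lie to the right of the line.

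Of the antigens used to sort the cells, Sca-1 and PDGFRα were both found in the RNA, and of those sorted away only CD34 reached 50 reads. Ly6a (ENSMUSG00000075602, chr15:74994877-74998031, minus strand), which encodes Sca-1, had 10269 reads and an RPKM of 1710 (1677 to 1743), the ninth of all ranked genes. Pdgfra (ENSMUSG00000029231, chr5:75152292-75198215, plus strand) had 739 reads and an RPKM of 14.8 (13.7 to 15.9), 116 times below Ly6a (107 to 125). Of the antigens sorted away, Pecam1 (CD31) had 0 reads, Itgam (CD11b) had 2 and Ptprc (CD45) had 4. Cd34 had 94 reads, 39 of them unique, and an RPKM of 3.69. The sort preceded the culture by 7 days, so these values describe the cells after culture.

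Of 21 surface and transcription factor genes listed for mesenchymal progenitors, 15 had 50 or more reads. The hyaluronan receptor Cd44 had 867 reads (RPKM 25.7), integrin β1 (Itgb1) 5450 reads (RPKM 268) and Thy1 187 reads (RPKM 21.6). Pdgfrb had an RPKM of 92.9, 6.28 times that of Pdgfra (5.79 to 6.83). Other members present were the adhesion molecules Vcam1 (23.0), Itgav (14.8), Cdh11 (27.0) and Cdh2 (17.9), the TGF-β coreceptor Eng (20.9), the sphingosine phosphate receptor S1pr3 (35.5) and the mesenchymal transcription factors Prrx1 (7.89), Twist1 (26.8) and Twist2 (4.36), though Twist2 had 41 unique reads. The leptin receptor gene Lepr and the nerve growth factor receptor gene Ngfr, both used to mark bone marrow stroma, had 0 reads.

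Both subunits of the IL-17A receptor were expressed without the ligand being added. Il17ra had 410 reads and an RPKM of 9.50, and Il17rc had 455 reads and an RPKM of 34.2. Per length Il17rc was 3.60 times Il17ra (3.14 to 4.12).

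The osteoblast list was split, with 8 of 19 genes at 50 or more reads, 6 at 1 to 49 and 5 at 0, and its 3 defining genes were present. Runx2 (chr17:44495987-44814797, minus strand), the transcription factor needed for osteoblast commitment, had 103 reads and an RPKM of 2.34 (1.91 to 2.84). Sp7 (osterix), which acts after Runx2, had 55 reads and an RPKM of 3.80 (2.86 to 4.94), none of them spliced. Alpl, encoding tissue-nonspecific alkaline phosphatase, had 209 reads and an RPKM of 10.4 (9.03 to 11.9). Spp1 (osteopontin) was far higher, with 3729 reads and an RPKM of 454 (439 to 469).

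Other members of the osteoblast list present were Col1a1, Atf4 (82.3), Pth1r (8.57), the parathyroid hormone receptor, and Smpd3 (68.7), of whose 1762 reads 313 were unique. Osteocalcin genes were at 2 reads for Bglap and 0 for Bglap2, and the mineralization genes Ibsp, Phospho1, Ifitm5 and Panx3 had 0 reads. Of 6 osteocyte genes Sost, Dmp1, Phex, Mepe and Fgf23 had 0 reads, and Pdpn, which stromal cells also express, had 500 (RPKM 55.2).

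Chondrocyte genes were split. Sox9, the master transcription factor of cartilage, had 177 reads (RPKM 8.59), Col2a1 436 reads (RPKM 14.6), Comp 1386 reads (RPKM 115) and Prg4, encoding lubricin, 111 reads (RPKM 5.20). Aggrecan (Acan), the other defining gene, and 7 further members had 0 reads.

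Adipocyte genes were present as well, 9 of 15 at 50 or more reads. The fatty acid binding protein Fabp4 had 1331 reads and an RPKM of 298, the master regulator Pparg 227 reads (RPKM 15.4) and adiponectin (Adipoq) 113 reads (RPKM 16.4). Lpl (35.6), Cd36 (15.4), Cfd (48.9), encoding adipsin, Dgat2 (19.5), Cidec (6.05) and Cebpa (4.65) were also present. Leptin (Lep), Pck1 and the insulin-responsive glucose transporter gene Slc2a4 had 0 reads, and the lipid droplet genes Plin1 and Plin4 had 17 and 6.

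Of 15 smooth muscle and pericyte genes, 10 had 50 or more reads, 3 had 1 to 49 and 2 had 0, at very unequal levels. Beside Acta2, Tagln and Actg2, the list held Cnn1 (RPKM 140), Smtn (43.2), Des (7.43), Lmod1 (4.78), Myh11 (4.78, 158 reads), Cspg4 (1.77) and Notch3 (1.32), the last with 35 unique reads. The coactivator myocardin (Myocd) had 19 reads, and the pericyte genes Rgs5 and Abcc9 had 0. Of 19 skeletal muscle genes 16 had 0 reads, including Myod1, Myog and Pax7, and those present were Acta1 with 266 reads and Des with 139.

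Of the tendon genes, Fmod (73.9), Thbs4 (43.2), Tnc (27.9) and the early response factor Egr1 (10.7) were present, whereas the defining Scx and Tnmd had 6 and 12 reads and Mkx had 0. Of the 17 genes listed for fibroblasts, 8 had 50 or more reads, 7 had 1 to 49 and 2 had 0. The list members present were S100a4 (1451), Cd248 (218), Postn (115), Dcn (104), Pdgfra (14.8), Dpt (12.7), Tbx15 (12.7) and Tcf4 (2.41). The proteoglycan gene Lum had 23 reads. Dpt had 41 unique reads of 109, under the minimum, and an RPKM of 5.44 with unique reads. Cd248, encoding endosialin, had 2788 reads, and Pi16, a gene of adventitial fibroblasts, had 32.

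Genes of red cells, granulocytes, lymphocytes and epithelium were at or near 0. The erythroid list had 0 reads in all 8 genes, the neutrophil and mast cell list had 2 reads in 11 genes, the lymphocyte list 7 reads in 14 and the epithelial list 5 reads in 9. The Schwann cell and neural list had 86 reads in 10 genes, none of them at 50 reads, with a highest RPKM of 4.08. S100a8, S100a9, Mpo, Cd3e, Cd3g, Cd79a, Hbb-bs, Hba-a1, Epcam, Krt14 and Sox10 were among the defining genes at 0 in these and in the Schwann cell list. Endothelial Pecam1 and Cdh5 had 0 reads, while Kdr (RPKM 2.60) and Eng (20.9), which stromal cells can also express, were present.

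Macrophage genes formed an exception among the blood lineages. Of 18 genes, 2 had 50 or more reads, 12 had 1 to 49 and 4 had 0, with a summed RPKM of 126. Lyz2 (lysozyme) had 548 reads (RPKM 86.8), and Csf1r, the receptor of CSF1, had 130 reads (RPKM 5.34), which put Csf1 172 times higher per length (145 to 206). The other defining genes were low, with 24 reads for Adgre1 (F4/80) and 33 for Cd68, and Mpeg1, Cd74, H2-Aa and Aif1 had 0. The complement components C1qa, C1qb and C1qc had 8, 41 and 21 reads. The part of such cells in the levels of secreted and lysosomal genes was not tested. In the osteoclast list Ctsk (82.9) and Nfatc1 (3.24) were present, and the defining Acp5 and Calcr had 0 reads.

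Genes of limb position and of proliferation were examined last. The hindlimb transcription factor genes Tbx4 and Pitx1 had 48 and 40 reads, just under the minimum, and the forelimb gene Tbx5 had 9. Of the 19 genes listed for hindlimb and Hox identity, 4 had 50 or more reads, 9 had 1 to 49 and 6 had 0. Over all genes with an exon length above 0 these counts were 8444, 4956 and 17296. The 4 genes present were Hoxa10 (5.83), Hoxc8 (6.55), Hoxc10 (7.78) and Shox2 (6.24). With unique reads 2 of the 19 genes reached 50. Hoxc8 had 16 and Hoxc10 46 reads unique to the gene.

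Of the 20 cell cycle genes, 19 had 50 or more reads. The ribonucleotide reductase subunit Rrm2 had an RPKM of 347, Cdc20 of 99.9, Ccnd1 of 55.0, Cdk1 of 30.9, Ccnb1 of 24.5, Top2a of 9.10 and Mki67 of 2.69. The other 10 present genes of S phase and mitosis, Ccna2, Bub1, Aurka, Aurkb, Plk1, Pcna, Mcm2, Mcm5, Tyms and Birc5, lay between 9.49 and 29.1. The cyclin-dependent kinase inhibitors Cdkn1a (p21) and Cdkn1c (p57) were at 341 and 41.5, and Cdkn2a had 13 reads.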

How the data were processed

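RNA was extracted with a Maxwell kit, and complementary DNA was made and amplified with the SMART-Seq v4 kit, which keeps no strand, so genes that overlap on opposite strands share reads. Per the study's methods the reads came from an Ion Proton sequencer and were analysed with CLC Genomics Workbench, with no version or settings stated there, and the submitters' processing notes name build mm10. The deposited table gives raw counts of exon, unique, spliced and intron reads per gene, and RPKM computed by the authors. RPKM was recomputed from the counts without difference.

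Shares, intervals and ratios were computed with Python 3.11.15, pandas 2.3.3 and scipy 1.17.1 and checked on simulated counts. No test between conditions was made. A gene with at least 50 exon reads was called present, and a count of 0 was taken to allow 3 reads. RPKM from unique reads divides by the total of unique gene reads, which raises a fully unique gene. Named genes were the 30 of highest RPKM, up to 5 of highest RPKM per function list, lineage genes at 50 reads or more, defining genes at 0, the markers, the sort genes and the 6 actins. The members and lists were chosen with earlier results of these data known, and other named genes, the ratio pairs and the sequence elements after the values were seen. A pyrimidine-rich start of ribosomal protein transcripts was also looked at in some genes, and not counted. List symbols missing from the table under that name were left out. A few genes of the lists are counted but not reported by name here.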

Additional observations from a re-analysis of the deposited data

How the results depend on the processing

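No paired analysis was possible because each condition was 1 library. The other alternatives moved the class shares by more than their counting interval in most cases. With unique reads the shares were 9.19% for matrix, 2.97% for contractile, 2.21% for ribosomal and 4.19% for secreted genes. As shares of summed RPKM they were 4.70%, 3.23%, 6.83% and 4.37%, and with intron reads added they were 8.15%, 2.86%, 3.13% and 3.91%, in the same order. Without the mitochondrial genome the matrix share was 8.63%, and the other 3 shares stayed within their intervals. A minimum of 200 exon reads left 4427 ranked genes instead of 8444, while a minimum of 10 gave 11189 and 50 unique reads gave 8110. The 90 lineage genes present became 129 at 10 reads, 64 at 200 reads, 84 with unique reads and 101 at 10 spliced reads. The 30 genes of highest RPKM were all kept at a minimum of 200 reads, and 25 were kept with unique reads. Genes under 50 reads have wide counting intervals, and 1 library leaves variation between cultures unmeasured.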

Other observations

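Few or no exon reads were assigned to the marker genes of either sex. Xist, the non-coding RNA that coats the inactive X chromosome, had 8 exon reads (RPKM 0.0895), and the Y-linked Ddx3y, Kdm5d, Uty, Eif2s3y and Sry had 0. Of 80 exon reads on the Y chromosome 79 belonged to Erdr1. The complementary DNA kit kept no strand, so the count for Xist depends on how reads were assigned. Whether reads of Xist were assigned to a gene on the opposite strand was not tested, so the count does not show that Xist was absent. The labels of this library give no sex, and the study's methods name female mice for its bone regeneration work and mice of both sexes for its work on inflammation.

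Several genes held reads of an unusual kind. Lars2, which encodes a mitochondrial leucyl-tRNA synthetase, had 11146 exon reads, of which 102 were spliced. Rn18s-rs5, a gene model named for 18S ribosomal RNA, had 16938 intron reads and 0 exon reads. Gm26917 had 376 exon reads and 4633 intron reads. B2m, the light chain of MHC class I, had an RPKM of 921 with 31.9% of its reads unique. These genes were picked after their values were seen.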
